A study of Mus musculus with 5 samples.

Results

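The astroglial marker genes are 10 genes chosen by name as markers of astrocytes and radial glia and matched by symbol to the gene identifiers of the deposited files: Gfap, Slc1a3, Slc1a2, S100b, Aqp4, Aldh1l1, Glul, Fabp7, Aldoc and Gja1. They are 10 of 27729 genes in the files. All 10 were found. Total RNA came from mouse embryonic fibroblasts (MEFs) of the ICR strain, the connective tissue cells of embryos freed of head and internal organs, which were grown in medium with serum, sampled once at that stage (called day 0), and then given 5C medium and sampled on day 2, day 5, day 10 and day 14. This serum-free medium holds vitamin C, 2-mercaptoethanol, basic fibroblast growth factor, leukemia inhibitory factor and N2 supplement, which supplies insulin, and is used to convert MEFs towards neuron-like cells. No gene was introduced and no allele differs between the time points. MEFs are a mixed primary culture, and the labels call the cells fibroblasts on every day. Labels and methods differ in places, since the labels name the medium 6C and the treatment text names a later last day than the label of the day 14 library.

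Each day is represented by 1 library, which leaves every difference without a replicate check, and no p-value is given. The expected counts, which are the numbers of reads that RSEM assigns to each gene, had totals from 2253748 in the day 2 library to 3890334 in that of day 0. The day 2 library also stood apart in the share of the gene Gm42418, at 4.79% of its counts against 0.0484% to 0.109% in the others. Dividing expected counts by the effective size of their library gave normalized counts. A gene was called over 2-fold higher or lower from log2(normalized count + 1), and folds in the text are ratios of normalized counts, with exact 95% intervals in brackets that cover counting error only. Where the day 0 count was 0, the fold was computed against 3 counts and leaves out the counting error of the later library. In these bulk samples more cells of a type and more RNA per cell cannot be told apart.

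Astrocytes are the glial cells of the central nervous system that take up glutamate, buffer potassium and water, and couple to each other through gap junctions. Radial glia, from which they arise, share several of their genes. GFAP, an intermediate filament protein, and ALDH1L1, an enzyme of folate metabolism, are the usual markers, but few of these genes belong to astrocytes alone: Gfap and S100b are also expressed by Schwann cells, S100b by fat cells, and Glul and Gja1 by many tissues. In neural precursors, cytokines such as leukemia inhibitory factor can turn on Gfap through the transcription factor STAT3, which binds a palindrome with the letters TTCNNNGAA.

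On day 14, 7 of the 10 markers exceeded their day 0 level by over 2-fold and 0 were lower by as much, beside 24.5% above and 19.9% below among the 13346 genes kept, which are those that reached 10 expected counts in at least 1 library. Gfap went from 0 to 150 expected counts, Aldh1l1 from 4 to 186, S100b from 8 to 85, Glul from 81 to 388, Slc1a3 from 20 to 80 and Aqp4 from 0 to 18, while the seventh, Slc1a2, had 1 count on day 0 and 4 on day 14. Aldoc, Fabp7 and Gja1 stayed within 2-fold. The median change of the 10 genes was 1.95 on the log2 scale, against 0.07 over all genes kept. Counting intervals lay wholly above no change for 6 of the 10 markers, all those named above except Slc1a2, and wholly below it for Gja1. All 10 passed the filter on low counts, but only 5 had 10 or more expected counts on day 0, and the other 5 passed through later libraries. Only 4 genes, Gfap, Aldh1l1, Glul and Gja1, reached 100 expected counts in any library.

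**Figure D1:**
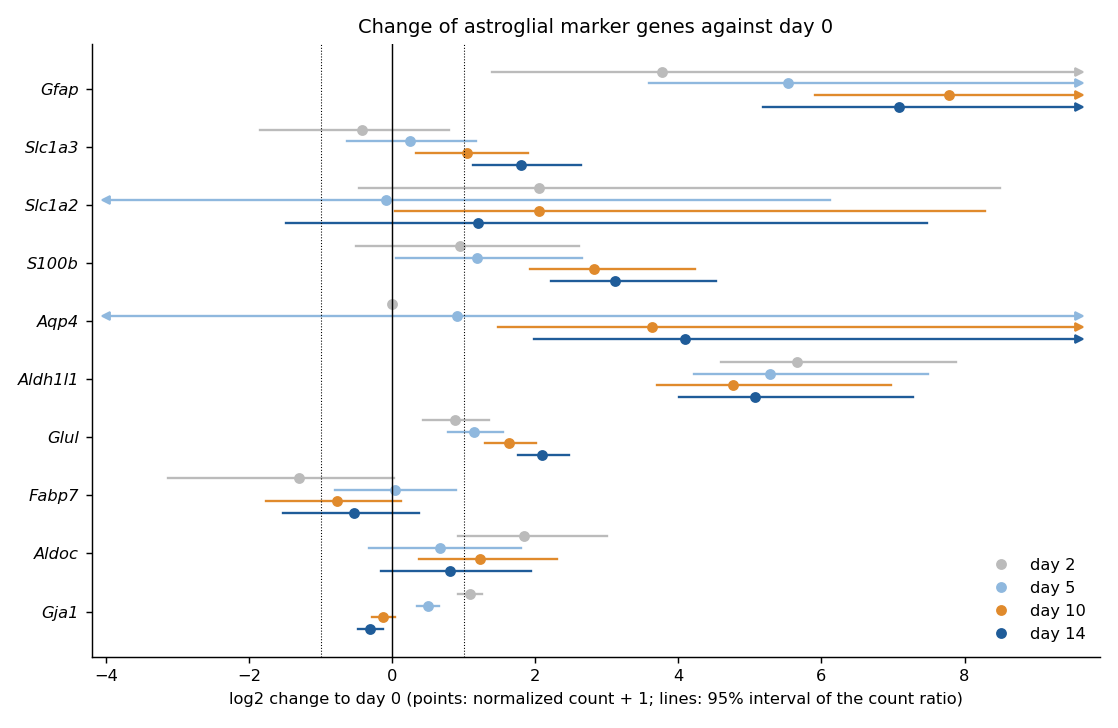
Change of each marker against day 0 on the log2 scale, with points from normalized counts + 1, lines for the 95% counting interval of the ratio (arrows where it has no end) and dotted lines at 2-fold. Gfap and Aldh1l1 lie farthest to the right, with day 14 values of 7.08 and 5.08, and Gja1 crosses from 1.09 on day 2 to -0.31 on day 14.

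The markers did not move at the same time. On day 2, 5 of the 10 were over 2-fold above day 0 (Gfap, Slc1a2, Aldh1l1, Aldoc and Gja1) beside 15.2% of all genes kept, and Fabp7 was over 2-fold below, beside 13.1%. On day 5, 4 were above (Gfap, S100b, Aldh1l1 and Glul) beside 20.2%, and 0 below beside 13.6%. The largest number was on day 10, when 8 were above, all but Fabp7 and Gja1, beside 28.7%, and 0 below beside 22.3%. Between neighbouring days, 2 genes were over 2-fold higher on day 5 than on day 2 (Gfap and Fabp7, beside 19.0%) and 2 over 2-fold lower (Slc1a2 and Aldoc, beside 12.5%). For Slc1a2 the day 2 call and this one rest on 1 and 4 counts. Their intervals, 0.724 to 360 and 0.0025 to 1.22, span no change. From day 5 to day 10, 4 were over 2-fold higher (Gfap, Slc1a2, S100b and Aqp4, beside 12.8%) and 0 lower (beside 9.5%). No marker changed over 2-fold in either direction between days 10 and 14, when 4.73% of all genes kept were above and 8.33% below.

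To show the DNA next to genes with large changes, the 250 bases before the RefSeq start site (build GRCm38.p6) are printed 5′ to 3′ for Gfap, Aldh1l1 and S100b, and also for Slc1a3, which was chosen after its window was seen to hold a STAT match. Glul, whose window overlaps exons of Teddm2 and Mir8114, is not shown. Capitals mark matches, on either strand, to TTCNNNGAA (STAT), GTGGGAA (RBPJ, the DNA-binding partner of Notch), AACAAT (SOX), the NFI palindrome, CCAAT and TATAAA, of which CCAAT and TATAAA were added after the sequences had been read.
Gfap, minus strand, chr11:102897201-102897450: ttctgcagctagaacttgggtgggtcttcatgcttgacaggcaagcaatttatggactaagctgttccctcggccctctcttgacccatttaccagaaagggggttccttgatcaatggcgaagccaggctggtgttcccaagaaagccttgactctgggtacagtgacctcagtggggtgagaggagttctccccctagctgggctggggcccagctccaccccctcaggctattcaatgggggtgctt
Aldh1l1, plus strand, chr6:90550543-90550792: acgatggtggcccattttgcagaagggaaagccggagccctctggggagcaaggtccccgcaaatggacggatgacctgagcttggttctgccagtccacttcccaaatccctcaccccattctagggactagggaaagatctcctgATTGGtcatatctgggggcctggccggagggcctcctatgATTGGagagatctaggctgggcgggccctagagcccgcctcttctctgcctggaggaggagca
S100b, plus strand, chr10:76253586-76253835: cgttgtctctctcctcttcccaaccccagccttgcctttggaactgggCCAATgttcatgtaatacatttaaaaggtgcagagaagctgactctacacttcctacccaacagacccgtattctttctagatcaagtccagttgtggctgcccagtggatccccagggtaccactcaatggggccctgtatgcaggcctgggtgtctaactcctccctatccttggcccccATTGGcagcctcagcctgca
Slc1a3, minus strand, chr15:8710808-8711057: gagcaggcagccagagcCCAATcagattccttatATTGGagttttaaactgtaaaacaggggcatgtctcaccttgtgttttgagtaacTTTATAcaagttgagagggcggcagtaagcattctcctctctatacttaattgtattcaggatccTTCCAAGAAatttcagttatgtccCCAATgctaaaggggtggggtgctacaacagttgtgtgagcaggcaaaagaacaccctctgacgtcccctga

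The Gfap window held none of these 6 motifs. Bases outside the windows were not searched, so whether Gfap has a STAT match elsewhere was not tested. The printed windows of Gfap and Aldh1l1 lie before a RefSeq start inside the annotated spans of these genes, which are given below, and not before the outermost start. Aldh1l1 and S100b each held 2 CCAAT matches, printed as CCAAT or its complement ATTGG, and the Slc1a3 window held 1 STAT match, TTCCAAGAA, which starts 96 bases before the gene's start, with 3 CCAAT matches and 1 TATAAA match. A STAT match was found in 7.01% of 32817 RefSeq promoter windows of this length, CCAAT in 33.8% and TATAAA in 12.4%. For the other motifs the shares were 9.43% (SOX), 5.42% (RBPJ) and 0.0366% (NFI). Windows were found for 9 of the 10 markers, and among those not printed, 1 of the 2 windows of Aldoc held 2 STAT matches and the other held 1 RBPJ match. No window of a marker held a SOX or NFI match. A match of letters is a description of the window, and factor binding was not measured.

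Gfap (ENSMUSG00000020932, chr11:102887336-102900912, minus strand, GRCm38) had 0, 7, 52, 308 and 150 expected counts in the libraries from day 0 to day 14. In normalized counts these were 0, 12.7, 45.5, 220 and 134. No read of this gene was counted in the starting fibroblasts, where 3 counts correspond to 0.771 per 1000000, and the level was highest on day 10. Against 3 counts the level was 4.27-fold higher on day 2, 15.3-fold on day 5, 74.1-fold on day 10 and 45.2-fold at the end. Lower interval ends of the ratio to day 0 were 2.63, 12.03, 59.9 and 36.3 in the same order. From day 10 to day 14 Gfap was lower, at 0.61 of its day 10 level (0.498 to 0.743). This difference was larger than counting error but within 2-fold. A long non-coding RNA gene on the other strand, Gm26668, lies in an intron of Gfap and had between 1.05 and 10.1 counts, with its highest value on day 2.

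Aldh1l1 (ENSMUSG00000030088, chr6:90486427-90600203, plus strand) encodes cytosolic 10-formyltetrahydrofolate dehydrogenase and was the marker with the earliest large change. It had 4 expected counts on day 0 and then 138, 219, 188 and 186. Normalized counts were 3.96, 250, 192, 134 and 166, and every later library stayed far above day 0. The day 2 value was the highest in normalized counts, but with counts per total and in TPM the highest was on day 5, at 38.1 TPM against 23.7 on day 2. Relative to day 0 the ratios in the 4 later libraries were 63.1 (24.1 to 235), 48.5 (18.6 to 179), 33.9 (13.0 to 126) and 42.0 (16.1 to 156). Gfap on day 2 was still near the limit of detection, with 7 counts. The mitochondrial paralog Aldh1l2 had 27.5 expected counts on day 0 and 163 in the last library, higher by 2.38 on the log2 scale (1.85 to 3.09). Gm15756, which shares exonic bases with Aldh1l1 on the other strand, had at most 1.68 counts in a library.

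S100b (ENSMUSG00000033208, chr10:76253853-76261159, plus strand), a calcium-binding protein of glia, had 8, 9, 22, 87 and 85 expected counts in order of day. Normalized counts were 7.92, 16.3, 19.3, 62.1 and 76.0, and the step lay between days 5 and 10, at 3.23-fold (2.00 to 5.41). On day 14 the log2 change from day 0 was 3.11 (2.22 to 4.52), and days 10 and 14 did not differ beyond counting error, with a ratio of 1.22 (0.896 to 1.67). The gene lies within an intron of Dip2a on the other strand, which had 28 to 309 counts in a library. The kit is not stated to keep the strand, so reads of such overlapping genes cannot be told apart by strand.

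Aqp4, the water channel of astrocyte endfeet, was seen in few reads. It had 0, 0, 1, 16 and 18 expected counts, which are normalized counts of 0, 0, 0.875, 11.4 and 16.1. The first 3 libraries are at or below the limit of 3 counts, and the last 2 are above it. Against 3 counts the level was 3.85-fold higher on day 10 and 5.42-fold on day 14, with lower interval ends of 2.78 and 3.97. Per length it stayed near the bottom of the markers, at 2.04 TPM in the last library, at the 9.91 percentile of the genes kept.

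**Figure D2:**
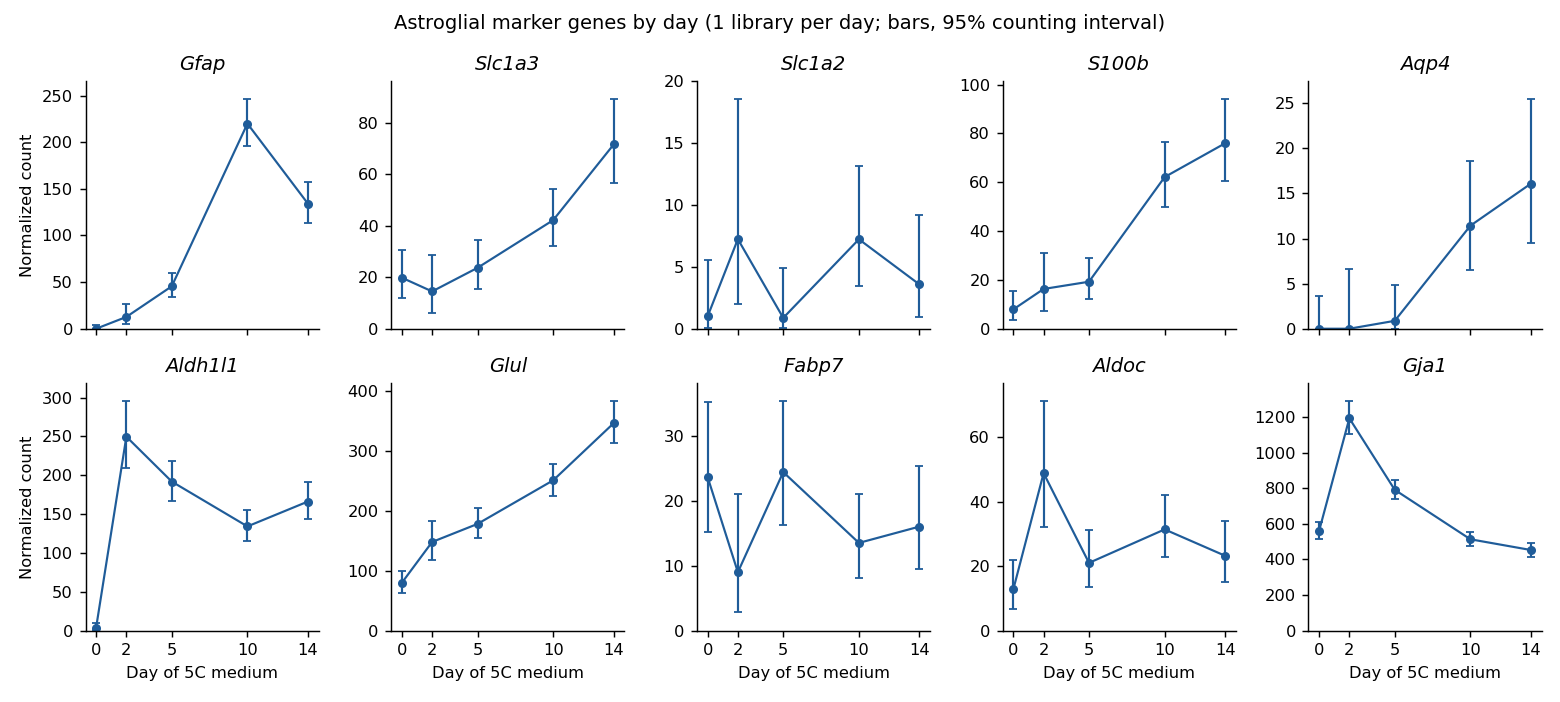
Normalized counts of the 10 markers by day of 5C medium, 1 library per day, with bars for the 95% counting interval and a separate axis from 0 in each panel. Glul, Slc1a3 and S100b are highest on day 14, Gfap on day 10, and Aldh1l1, Aldoc and Gja1 on day 2, whereas in TPM Aldh1l1 and Gja1 are highest on day 5 and Aldoc on day 10.

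Glul, Slc1a3 and Slc1a2 serve the glutamate cycle, in which astrocytes take up glutamate with the transporters GLAST (Slc1a3) and GLT-1 (Slc1a2) and turn it into glutamine with glutamine synthetase (Glul). Glul (ENSMUSG00000026473, chr1:153899944-153909723, plus strand) was expressed by the starting fibroblasts, with 81 expected counts on day 0 and then 82, 204, 352 and 388. Normalized counts were 80.2, 148, 179, 251 and 347, each higher than the one before. From day 2 to day 14 the ratios to day 0 were 1.85 (1.34 to 2.55), 2.23 (1.71 to 2.92), 3.14 (2.46 to 4.04) and 4.33 (3.40 to 5.57). Every interval lay above no change.

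Slc1a3 (ENSMUSG00000005360, chr15:8634124-8710764, minus strand) had 20, 8, 27, 59 and 80 expected counts in order of day, or 19.8, 14.5, 23.6, 42.1 and 71.5 normalized counts. Days 2 and 5 did not differ from day 0 beyond counting error. The ratio was 2.13 on day 10 (1.26 to 3.73) and 3.61 on day 14 (2.19 to 6.23). Its transcript length, as RSEM estimated it, was 2159 bases on day 0 and 4031 in the last library, and its TPM went from 3.24 to 11.5. Slc1a2 (ENSMUSG00000005089, chr2:102658659-102790784, plus strand), the main glutamate transporter of mature astrocytes, remained close to the limit of detection with 1, 4, 1, 10.1 and 4 expected counts. Its day 14 ratio of 3.61 had an interval from 0.358 to 178, so no change from day 0 to day 14 was detectable at this depth. On day 10 the ratio to day 0 was 7.30 (1.03 to 313), an interval just above no change that rests on 1 and 10.1 counts.

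Several other genes of glutamate and glutamine handling were lower on day 14. Of 14 listed, 9 passed the filter on low counts, all with 10 or more counts on day 0. On day 14, 0 of these 9 were over 2-fold above day 0 (beside 24.5% of all genes kept) and 5 were below (beside 19.9%). The other 4 were within 2-fold, and the median log2 change was -1.13. The neuronal glutamate transporter gene Slc1a6 had 318 expected counts on day 0, 19 on day 2 and 5 at the end, and its log2 change was -5.85 (-7.77 to -4.90). Slc38a1, a glutamine transporter, went from 230 to 49 counts, a log2 change of -2.35 (-2.85 to -1.93). Got2, the mitochondrial aspartate aminotransferase, changed by -1.44 (-1.61 to -1.27). The 2 others below were Got1 and Slc1a4. Slc1a7, Slc38a3 and Slc38a5 were at 0 on day 0 and again on day 14.

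Gja1 (ENSMUSG00000050953, chr10:56377330-56402513, plus strand), which encodes the gap junction protein connexin 43, was the most abundant marker of the starting fibroblasts. Its expected counts from day 0 to day 14 were 566, 659, 904, 719 and 507. As normalized counts, 560, 1192, 791, 513 and 453, the day 2 value was the highest and the values after it were lower from day to day, while in TPM the highest value was on day 5. The ratio to day 0 was 2.13 on day 2 (1.90 to 2.39) and 0.809 on day 14 (0.716 to 0.914). The direction on day 14 depends on the scale: the log2 change was -0.31 with normalized counts, 0.05 with counts per total and 0.56 in TPM, where the median of all genes kept changed by 0.78. Of the 18 other connexin genes, 5 passed the filter, 3 of them with 10 or more counts on day 0. On day 14, 3 were over 2-fold above day 0 (beside 24.5% of all genes kept) and 2 below (beside 19.9%). Gjc3, a connexin of myelinating glia, had 0, 4.87, 38.3, 404 and 307 expected counts by day. Against 3 counts on day 0 it was 92.4-fold higher on day 14. Gjc1 went from 48 to 180 counts, a log2 change of 1.74 (1.29 to 2.25). Gjb6, which encodes connexin 30, the other connexin of astrocytes, was at 0 in all 5 libraries.

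In normalized counts, Fabp7 and Aldoc showed no change from day 0 to day 14 beyond counting error. Fabp7 (ENSMUSG00000019874, chr10:57784881-57788450, plus strand), the brain fatty acid binding protein of radial glia, had 24, 5, 28, 19 and 18 expected counts by day. In normalized counts of 23.8, 9.05, 24.5, 13.6 and 16.1, only the day 2 value lay over 2-fold from day 0, at a ratio of 0.381 (0.114 to 1.02). Aldoc (ENSMUSG00000017390, chr11:78322968-78327781, plus strand), the brain isozyme of the glycolytic enzyme aldolase, had 13, 27, 24.1, 44 and 26 expected counts, or 12.9, 48.8, 21.0, 31.4 and 23.2 normalized counts. It was 3.80-fold above day 0 on day 2 (1.89 to 8.01) and 2.44-fold on day 10 (1.29 to 4.94), and its day 14 ratio was 1.81 (0.895 to 3.83). Fabp7 is among the shortest 5.13% of the genes kept, and genes of its length class had a median log2 change of -1.04 on day 14. Relative to that median, Fabp7 changed by 0.51 in place of -0.53. The length class of Aldoc had a median of -0.54, relative to which Aldoc changed by 1.35 in place of 0.81. In TPM its change was 1.04.

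Several paralogs from the families of Fabp7, Aldoc, Aqp4 and Aldh1l1 had larger counts. Of 18 listed, 9 passed the filter, 7 with 10 or more counts on day 0. On day 14, 4 were over 2-fold above (beside 24.5% of all genes kept) and 3 below (beside 19.9%). The median log2 change was 0.27. Fabp4, the fatty acid binding protein of fat cells, went from 62 to 1874 expected counts, a log2 change of 4.75 (4.41 to 5.16). The water channel gene Aqp1 went from 106 to 2518 counts, a change of 4.41 (4.14 to 4.72). Aqp5 went from 142 to 4 counts, a change of -4.95 (-7.19 to -3.91).

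Levels of different genes were compared only in TPM, which divides by gene length. On day 0 Gja1 led with 63.5 TPM, followed by Fabp7 at 10.6 and Glul at 10.1, which did not differ beyond counting error, and by Aldoc at 4.90 and Slc1a3 at 3.24, which did not differ either. S100b, at 1.89, did not differ from Slc1a3. Aldh1l1 was at 0.46, Slc1a2 at 0.18, and Gfap and Aqp4 were listed at 0. Gja1 stayed first on days 2, 5 and 10, at 113, 147 and 131 TPM. On day 14 Glul at 94.6 and Gja1 at 94.3 did not differ beyond counting error, and below them Aldh1l1 at 34.9, S100b at 33.2 and Gfap at 32.8 did not differ from neighbour to neighbour. A further step down were Fabp7 at 13.1, Slc1a3 at 11.5 and Aldoc at 11.1, again without a difference between neighbours. Aqp4 at 2.04 and Slc1a2 at 0.20 came last. Added up, the 10 markers had 94.9, 177, 272, 398 and 328 TPM in order of day, and Gja1 and Glul made up most of each sum.

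**Figure D3:**
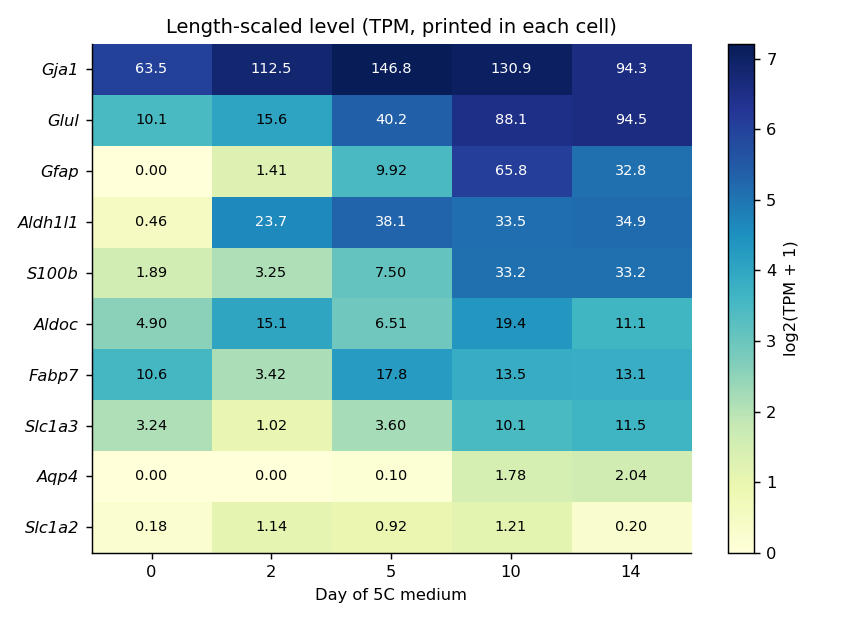
Level of each marker per gene length, in TPM (transcripts per 1000000), printed in each cell for the library of each day, with colour on a log2(TPM + 1) scale. Gja1 goes from a highest value of 147 on day 5 to 94.3 on day 14, while Glul goes from 10.1 to 94.6.

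A wider list held 30 other astrocyte genes. Of these, 18 passed the filter, 7 with 10 or more counts on day 0. On day 14, 13 of the 18 were over 2-fold above day 0 (beside 24.5% of all genes kept) and 1 below (beside 19.9%). The median log2 change was 2.50. Entpd2, an enzyme that splits extracellular ATP, went from 6.44 to 2125 expected counts, a log2 change of 8.01 (7.20 to 9.77). Sparcl1, a secreted matrix protein that acts on synapses, went from 4 to 846 counts, a change of 7.25 (6.22 to 9.46), and the membrane protein gene Ttyh1 from 8.02 to 786, a change of 6.30 (5.49 to 7.69). In TPM all 3 were at or below 1.16 on day 0 and were higher than each of the 10 markers on day 14, at 641, 157 and 171. Cxcl14, a chemokine, was the gene below, from 516 to 64 counts. Gjb6 and Ntsr2 were at 0 in all 5 libraries, and Slc6a11 was at 0 on days 2, 5, 10 and 14.

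Among 15 radial glia and neural stem cell genes, 11 passed the filter, 8 with 10 or more counts on day 0. On day 14, 7 were over 2-fold above day 0 (beside 24.5% of all genes kept) and 2 below (beside 19.9%). The median log2 change was 1.47. Sox2, a transcription factor of neural stem cells, went from 3 to 556 counts, a log2 change of 6.97 (5.83 to 9.67). Tnc, a matrix glycoprotein, changed by 2.31 (2.25 to 2.36) and Nes, the intermediate filament nestin, by 2.14 (2.02 to 2.26), and both were highest on day 14. Emx2, a transcription factor, was among the genes below, with 57 counts on day 0 and 19.6 at the end. Sox1 was at 0 in all 5 libraries.

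All 10 gliogenic regulators passed the filter, 9 with 10 or more counts on day 0. On day 14, 7 were over 2-fold above day 0 (beside 24.5% of all genes kept) and 0 below (beside 19.9%). The median log2 change was 1.24. Socs3, a target and feedback inhibitor of STAT3, went from 43 to 1145 counts, a log2 change of 4.56 (4.15 to 5.06). Lifr, the receptor of leukemia inhibitory factor, changed by 2.94 (2.46 to 3.53) and Zbtb20, a transcription factor of astrocyte formation, by 1.34 (0.78 to 1.98). Stat3 itself changed by 1.04 (0.86 to 1.22). Sox9 and Nfib, which act in the switch to glia, stayed within 2-fold at 0.11 and 0.29, and Nfix at -0.31. Stat3, Sox9, Nfib and Nfix are named outside the rule for named genes, after their values were seen.

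Genes that astrocytes raise after injury did not move together. Of 11 listed, all passed the filter, 6 with 10 or more counts on day 0. On day 14, 5 were over 2-fold above day 0 (beside 24.5% of all genes kept) and 3 below (beside 19.9%). The median log2 change was 0.89. The metalloreductase gene Steap4 went from 2 to 886 counts, a log2 change of 8.06 (6.79 to 11.69). The protease inhibitor gene Serpina3n went from 26.7 to 3406 counts, a change of 6.80 (6.29 to 7.44), and Cp, which encodes ceruloplasmin, from 5 to 152, a change of 4.52 (3.52 to 6.42). All 3 were highest on day 10, like Gfap. The 3 genes below were Hspb1 at -4.38, Timp1 at -2.98 and Cd44 at -1.23.

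**Figure D4:**
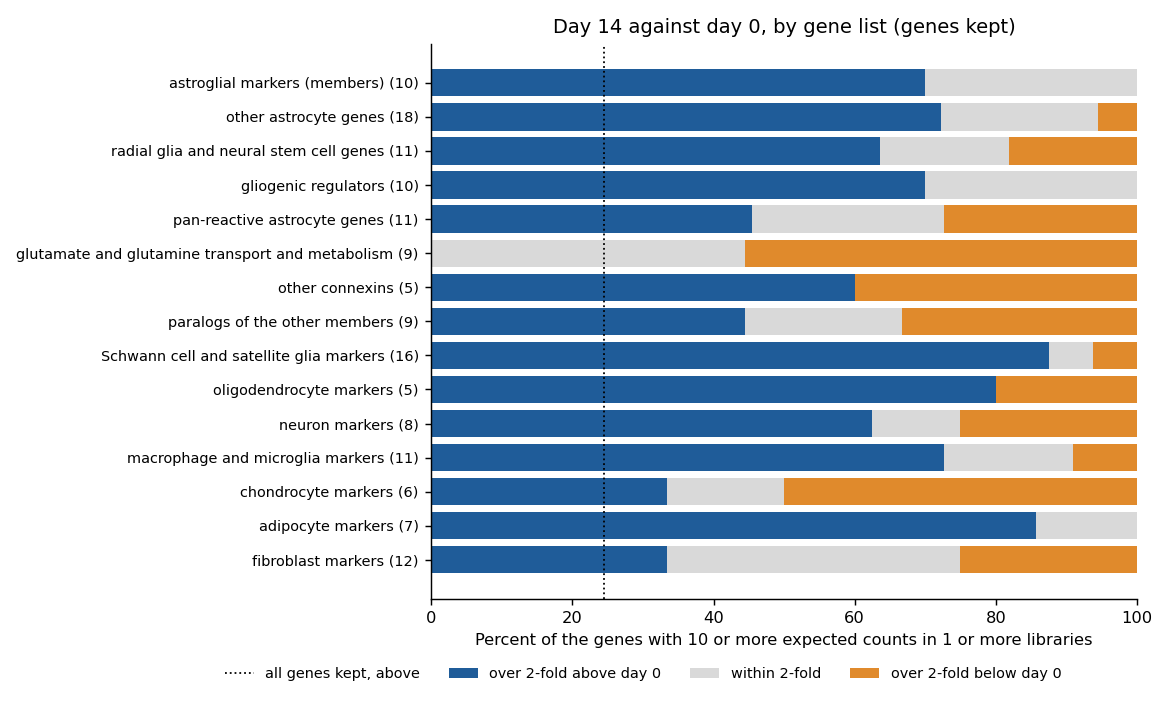
Share of the genes of each list, of those kept by the filter on low counts (number in brackets), that were over 2-fold above day 0, within 2-fold or over 2-fold below on day 14. The dotted line is the 24.5% of all genes kept that were above, and 7 of 10 astroglial markers were over 2-fold above, beside 14 of 16 Schwann cell and satellite glia markers and 0 of 9 glutamate genes.

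Markers of other cell types moved in the same libraries, and their part in the values of the 10 genes was not tested. All 16 markers of Schwann cells and satellite glia passed the filter, 7 with 10 or more counts on day 0. On day 14, 14 were over 2-fold above day 0 (beside 24.5% of all genes kept) and 1 below (beside 19.9%), with a median log2 change of 5.71. Their summed levels were 185, 120, 534, 3506 and 2878 TPM in order of day, Gjc3 and Pou3f1 were at 0 on day 0, and none was at 0 from day 5 on. Sox10, a transcription factor of neural crest cells and glia, had 7, 12, 320, 1478 and 2230 expected counts, and Cdh19, a cadherin of Schwann cell precursors, had 4, 2, 97, 1178 and 1295. These 2 genes and Gjc3 had between 2 and 12 counts on day 2.

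Of 8 adipocyte markers, 7 passed the filter, 3 of them with 10 or more counts on day 0. On day 14, 6 were over 2-fold above day 0 (beside 24.5% of all genes kept) and 0 below (beside 19.9%). Their summed level went from 50.7 TPM on day 0 to 2353 at the end. Adipoq and Plin1, which define fat cells, were at 0 on days 0 and 2 and had 264 and 150 counts on day 14. Among 12 macrophage and microglia markers, 11 passed the filter, 4 of them with 10 or more counts on day 0. Beside the same shares, 8 were above on day 14 and 1 below. Their summed levels were 39.6, 279, 509, 332 and 266 TPM, Cx3cr1 was at 0 on days 10 and 14, and C1qb, a complement subunit of macrophages, had 7, 66, 138, 93 and 82 counts. From day 0 to day 2 the sum of this list went from 39.6 to 279 TPM and Aldh1l1 from 0.46 to 23.7. By day 14 the sum was 266 TPM, below its day 5 value, and Aldh1l1 was at 34.9. On day 2, 3 of 12 fibroblast markers were over 2-fold above day 0 (beside 15.2% of all genes kept) and 2 below (beside 13.1%). Their median log2 change was -0.18, and Lum and Dcn, from 24 to 249 and from 103 to 343 counts, were among those above. A link between the macrophage and microglia list and Aldh1l1 was not tested.

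Neuron markers were above on day 14 in 5 and below in 2 of the 8 that passed the filter, beside 24.5% and 19.9% of all genes kept. These 8, of 13 listed, included 5 with 10 or more counts on day 0. The summed level of the list went from 134 to 1233 TPM. Gap43, a growth cone protein, went from 28.2 to 1101 TPM and made up most of the last sum. Map2 was among the genes below, from 198 to 51 counts, and Rbfox3, which marks mature neurons, was at 0 in all 5 libraries. Oligodendrocyte markers summed to between 13.5 and 103 TPM. Of 11 listed, 5 passed the filter, 2 with 10 or more counts on day 0, and 4 were above and 1 below beside the same shares. Olig1 went from 0 to 234 counts and Cspg4, the gene below, from 858 to 98, and Mobp, Opalin, Nkx2-2 and Ermn were at 0 throughout. Chondrocyte markers summed to between 11.2 and 48.4 TPM, and Snorc was at 0 in every library. Of 10 listed, 6 passed, 3 with 10 or more counts on day 0, and 2 were above and 3 below beside the same shares. Col2a1 went from 606 to 3 counts and Comp from 3 to 156. Fibroblast markers had a higher sum than the Schwann cell, adipocyte, macrophage, neuron, oligodendrocyte and chondrocyte lists in every library. It was between 1476 TPM on day 2 and 11561 TPM on day 14, with 4 above and 3 below of 12, beside the same shares. The radial glia and neural stem cell genes summed to more on days 0, 2, 5 and 14, at 6991 TPM on day 0 and 17543 TPM on day 14. Of that list, Sox2, Tnc and Nes had 0.51, 143 and 39.5 TPM on day 0 and 156, 1283 and 319 on day 14. Most of both sums therefore came from other genes of the list, which include Vim. Dcn and Lum, proteoglycans of connective tissue and among the 4 fibroblast markers above, went from 103 to 3344 counts and from 24 to 1663.

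**Figure D5:**
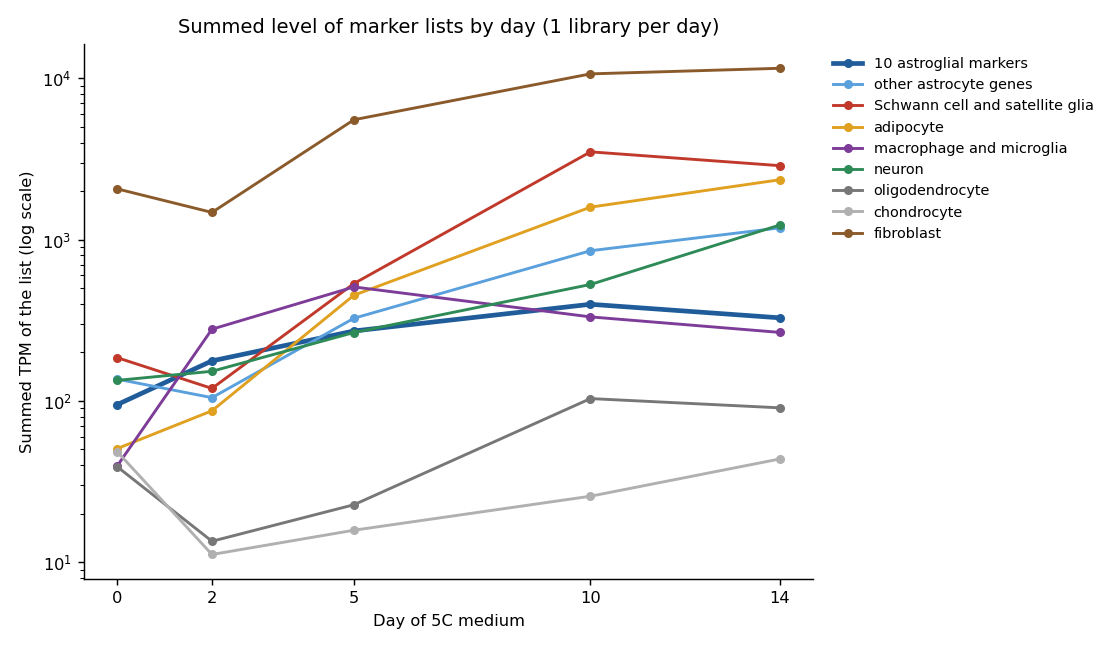
Summed level of each marker list by day in TPM on a log axis, 1 library per day. The 10 astroglial markers (thick line) go from 94.9 to a highest value of 398 on day 10, below the fibroblast, Schwann cell and adipocyte lists from day 5 on.

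The genes whose time course was nearest to each of the 4 deeper markers were found among 8256 genes that reached 100 expected counts in at least 1 library, by the root mean square difference in log2 change over the 4 time points of 5C medium. These distances are descriptions over 4 libraries that share the day 0 library. Nearest to Gfap were Adamts15, a metalloproteinase of the ADAMTS family, at 0.361, Lbp, a protein that binds bacterial lipopolysaccharide, at 0.368, and Scara5, a ferritin receptor, at 0.454. All 3 had 0 or 1 count on day 0 and their highest value on day 10. Aldh1l1 had no gene as close: Ms4a7, a membrane protein of macrophages, was at 0.694, the sterol exporter gene Abcg1 at 0.802 and Ugt1a8, whose locus shares exons among several genes, at 0.840. Among the nearest to Glul were Pdzd4 at 0.0482 and Hs6st1, a heparan sulfate enzyme, at 0.149. For Gja1 the nearest were Tspan5 at 0.0829, Hmgn2, a chromatin protein with processed pseudogenes, at 0.0970 and Pgd, an enzyme of the pentose phosphate pathway, at 0.129.

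Scaling changed the background more than the count of markers. In TPM the median of all genes kept shifted, against normalized counts, by -0.17, 0.56, 0.95 and 0.72 (log2, in order of day from day 2), and with counts per total by -0.08, 0.37, 0.46 and 0.35. In TPM, 7 markers were over 2-fold above day 0 on day 14, with Aldoc in place of Slc1a2, beside 41.6% of all genes kept, and 0 below beside 6.97%. On day 2, 3 markers were above in TPM beside 7.9% and 2 below beside 14.0%. For day 5 the TPM values gave 5 above beside 32.0% and 0 below beside 3.98%, and for day 10 they gave 8 above beside 52.9% and 0 below beside 6.77%. On the log2(TPM + 1) scale, which understates changes of genes with low TPM, the changes on day 14 relative to the median of all genes kept were 4.29 for Gfap, 3.83 for Aldh1l1, 2.78 for S100b, 2.32 for Glul, 0.82 for Aqp4, 0.77 for Slc1a3, 0.25 for Aldoc, -0.22 for Gja1, -0.51 for Fabp7 and -0.76 for Slc1a2. For Slc1a2, the length that RSEM estimated went from 567 bases on day 5 to 11595 on day 14. Gfap, Aldh1l1, S100b and Glul kept their direction and stayed over 2-fold above the shifted median on this scale. Aqp4, Slc1a3 and Slc1a2 did not, and all 3 had low TPM values, to which the pseudocount of 1 matters.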

How the data were processed

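Total RNA of MEFs was sequenced in 1 library for each of 5 days, prepared with an Illumina TruSeq RNA kit, and the labels gave each library its day. The authors' deposited files hold expected counts of each gene, which RSEM estimates without scaling for library size, beside TPM and FPKM values, which RSEM scales by gene length and library size. The submitters' processing notes name Bowtie, RSEM and mm10 without versions, and the gene annotation is not given in the sources used here. The effective length equals the length of every gene in the deposited files. FPKM values were not used.

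Expected counts were rounded to whole numbers for library sizes and intervals and were used unrounded for normalized counts and folds, and effective library sizes came from TMM factors (R 4.3.3 with edgeR 4.0.16), with normalized counts scaled to the geometric mean of the 5 libraries. Genes that reached 10 expected counts in at least 1 library were kept (13346 of 27729). Log2 changes used a pseudocount of 1 and the limit was 2-fold. No test between days was possible with 1 library per day. Intervals are exact Clopper-Pearson 95% intervals of the counts of the 2 libraries compared, and for 1 library exact Poisson intervals, both covering counting error only. The limit that a count of 0 allows was 3 counts, or 0.771 to 1.33 per 1000000. Symbols, coordinates and overlaps came from GENCODE M21 (GRCm38), which matched 27247 identifiers, and promoters from RefSeq (GRCm38.p6). Fixed by rule, the genes named are the 10 markers, in each other list up to 3 genes with the largest change on day 14 among those with 100 or more expected counts in a library, markers at 0, and the 3 nearest time courses of each marker of that depth. Further genes named are members of a list that passed the 2-fold limit or defining regulators, chosen after their values were seen. Some genes that this rule or a list holds are not reported here. The members and lists were chosen with earlier results of these data known. Alternatives were DESeq2 1.42.0 size factors, counts per total, upper-quartile factors, TMM without 2 genes or without day 2, TPM, a pseudocount of 5, other filters, a 4-fold limit and changes relative to genes of like length. The scripts were tested on simulated counts. Other software was Python 3.11.15 with matplotlib 3.10.9, pandas 2.3.3, scipy 1.17.1 and numpy 2.4.6.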

Additional observations from a re-analysis of the deposited data

How the results depend on the processing

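The number of astroglial markers over 2-fold above day 0 on day 14 was 7, and between 5 and 8 under every alternative but one: 8 with counts per total or relative to genes of like length, 6 with a pseudocount of 5 and 5 with a 4-fold limit. Requiring 100 or more expected counts left 4 markers tested and gave 3 above, with a median log2 change of 3.59 in place of 1.95, and for the other astrocyte genes it gave a median of 4.84 in place of 2.50. Without a filter on low counts the latter median was 1.56. These shifts follow from which genes the filters leave. No marker was over 2-fold below day 0 on day 14 under any alternative. The change of Gja1 on day 14 turned from -0.31 to 0.052 with counts per total and to 0.56 in TPM. These 2 scalings shifted the day 14 median of all genes kept by 0.35 and 0.72 against normalized counts. Relative to the median of its own scale, Gja1 changed by -0.37 in normalized counts and by -0.22 in TPM. Which scale is nearer to the true change was not tested. Of the 40 changes of single markers, 13 others moved beyond their counting interval in TPM, 3 others with counts per total, 3 with a pseudocount of 5 and 5 relative to genes of like length, and 0 with DESeq2 size factors, upper-quartile factors or library sizes without Gm42418 and Lars2. No paired analysis was possible because there was 1 library per time point, and for the same reason no replicate could be left out. Depth limits Slc1a2 and Aqp4 most, with at most 10.1 and 18 counts in a library.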

Other observations

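On day 14 the connexin of the markers, Gja1, was at 94.3 TPM and Gjc3, which was listed at 0 on day 0, at 50.4 TPM. Aqp1, the water channel gene that is not a marker of astrocytes, was at 554 TPM beside 2.04 TPM for Aqp4. Emx2 was lower on day 14 than on day 0, with a log2 change of -1.63, in the same library in which Sox2 was higher.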
